A study of Mus musculus with 12 samples.

Results

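The comparison described here set 3 libraries of CD11c+MHCII+ synovial cells against 3 libraries of CD11c-MHCII+ synovial cells, all from unstimulated explants, and asked which genes separate the 2 subsets. These 6 libraries, of 12 in the series, were chosen by their titles alone, which name the CD11c+ subset CD11c, the CD11c- subset IAIE and the unstimulated state Healthy. All came from synovium of adult wild-type C57BL/6 mice (of C57BL/6J background per the study's methods) that was kept as an explant for 4 h before the cells were sorted by flow cytometry and bulk RNA was sequenced. The control explants received vehicle without peptide, per the study's methods. The other 6 libraries hold both subsets from explants given CGRP (calcitonin gene-related peptide, released by sensory nerves) at 100 nM. Both subsets passed through digestion of the tissue, an MHC class II gate and the explant culture, so neither represents a cell taken straight from the joint. The labels do not say whether replicates came from separate animals or pools, so p-values measure only the spread between these libraries, which may be technical.

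Synovial macrophages that lie along the lining and in the tissue beneath it clear debris and complement-tagged material, and long-lived resident cells are known for scavenger receptors, complement components and growth factors. CD11c, the integrin alpha X chain, together with MHC class II, which presents peptides to helper T cells, is carried by dendritic cells but also by macrophages that derive from monocytes. Dendritic cells depend on other transcription factors than macrophages do, and on maturation they switch on the chemokine receptor that guides them to lymph nodes together with chemokines that attract T cells.

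The control libraries held between 2127191 and 4465508 counts, so that the floor of 3 counts in each library corresponded to between 0.644 and 1.34 CPM, the count relative to the TMM-scaled library size. Across genes, Spearman's rho lay between 0.934 and 0.937 within the CD11c- subset, between 0.939 and 0.962 within the CD11c+ subset and between 0.885 and 0.905 across the subsets. The first principal component of the 6 libraries carried 43.5% of the variance and separated the subsets, and on the second (16.9%) CD11c+ replicate 1 lay apart from the other two CD11c+ libraries. Mitochondrial transcripts took 10.1% to 11.9% of the counts in CD11c- libraries and 7.68% to 8.80% in CD11c+ libraries, without overlap, and the part of this in the results below was not tested. In bulk RNA, fewer cells of a type and less RNA per cell cannot be told apart.

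Of 11927 genes tested, 2526 (21.2%) passed an adjusted p of 0.05 in edgeR's quasi-likelihood test, 1220 of them (10.2% of genes tested) higher and 1306 (10.9%) lower in CD11c+ cells. A difference of at least 2-fold was reached by 565 of the higher and 757 of the lower genes, and a difference of at least 8-fold by 82 and 106. The 3 CD11c- and 3 CD11c+ values did not overlap for 4080 genes, 34.2% of those tested, so non-overlap alone is common in this table. The median log2 difference over all genes tested was -0.02, and this and the percentages above are the background against which the gene lists are read.

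**Figure D1:**
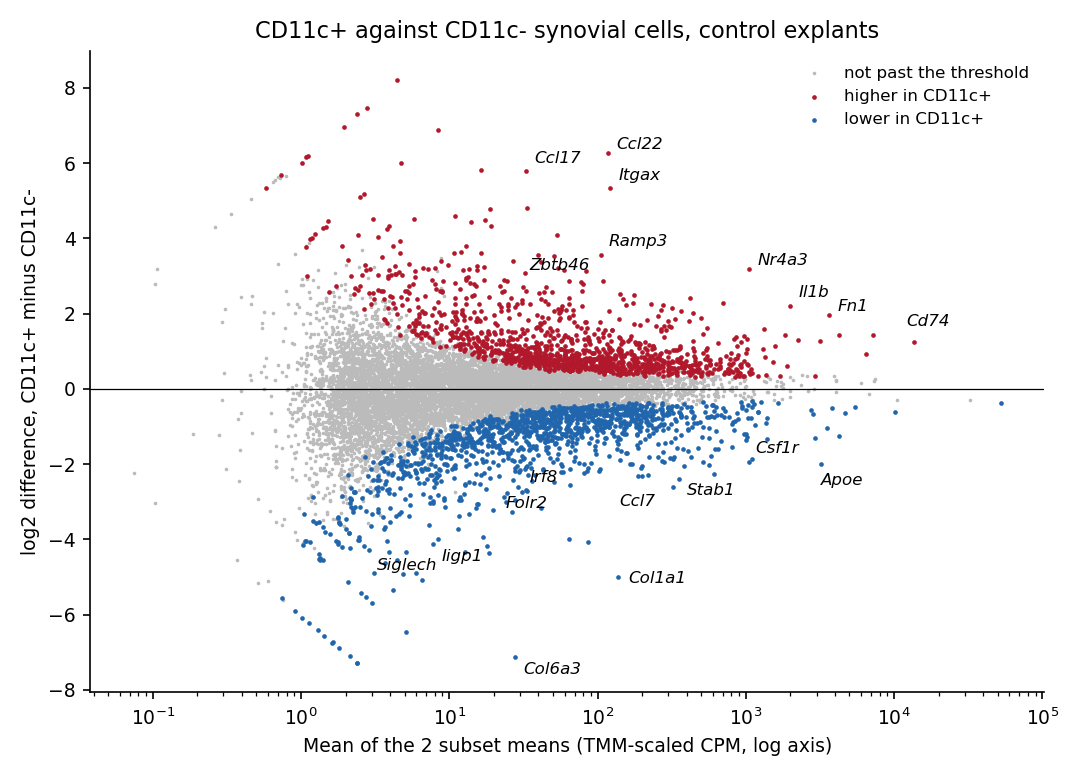
Each point is 1 of 11927 tested genes, with the mean of the subset means in CPM on a log axis and the fitted log2 difference (CD11c+ minus CD11c-) on the vertical axis. Red marks the 1220 genes higher and blue the 1306 lower in CD11c+ cells; differences of genes near the floor are fitted values and not bounds.

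The sort was examined first, and the genes of the gate are therefore a check of the labels rather than a result. *Itgax*, which encodes CD11c (chr7:128129547-128150657, mm10), was measured at 1.24, 6.59 and 10.7 CPM in the CD11c- libraries and 270.1, 220.5 and 219 CPM in the CD11c+ libraries. All CD11c+ values lay above all CD11c- values, with a log2 difference of 5.33 ± 0.40 (adjusted p 2.99e-08), and 10.7% of the 31-base words of its transcripts are shared with *Itgad*. The MHC class II genes were present at high levels in both subsets, as the gate requires, but were not equal between them. *H2-Ab1*, the beta chain of the I-A molecule, was measured at 4248, 3482 and 3957 CPM in the CD11c- libraries and 11606, 9957 and 10219 CPM in the CD11c+ libraries, a log2 difference of 1.44 ± 0.12 (adjusted p 5.27e-08) without overlap. Of 12 tested genes of MHC class II presentation, 9 were higher and none lower in CD11c+ cells, and the median log2 difference was 1.26. Besides *H2-Ab1* these included *H2-Eb1* (1.43 ± 0.12), *H2-Aa* (1.28 ± 0.13) and *Cd74* (1.24 ± 0.12), the invariant chain that guides class II molecules through the cell. For *Cd74* the values were 9583, 7414 and 7472 CPM in the CD11c- libraries and 20326, 19664 and 17757 CPM in the CD11c+ libraries.

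Genes that define macrophages were detected in every library of both subsets and were mostly lower in CD11c+ cells. Of 24 pan-macrophage genes tested, 15 were lower, 2 were higher and 7 did not pass, with a median log2 difference of -0.95. *Csf1r*, the receptor for the growth factor on which macrophages depend, was measured at 1551, 1491 and 1276 CPM in the CD11c- libraries and 636, 632 and 517 CPM in the CD11c+ libraries. The groups did not overlap, and the log2 difference was -1.28 ± 0.15 (adjusted p 4.89e-06). *Adgre1*, which encodes F4/80, was at 527, 403 and 460.2 CPM in the CD11c- libraries and 279, 266 and 275 CPM in the CD11c+ libraries (-0.76 ± 0.13, adjusted p 0.000245). *Mertk*, a receptor for the uptake of dying cells, was at 57.1, 43.3 and 29.1 CPM in the CD11c- libraries and 13.9, 13.3 and 7.51 CPM in the CD11c+ libraries (-1.93 ± 0.36, adjusted p 0.000618) and 3.80-fold lower on average in CD11c+ cells. *Cd68* (-1.03 ± 0.12), *Fcgr1*, the high-affinity IgG receptor (-1.45 ± 0.25), *Mrc1*, the mannose receptor (-1.34 ± 0.16), and *Ctsb*, a lysosomal protease (-1.05 ± 0.10), were lower as well. In contrast, *Tyrobp*, a signalling adaptor (0.59 ± 0.14, adjusted p 0.00451), and *Mpeg1*, a pore-forming protein of phagocytes (0.54 ± 0.13, adjusted p 0.00465), were higher in CD11c+ cells. *Itgam*, which encodes CD11b, was at 196, 176 and 171 CPM in the CD11c- libraries and 207, 224 and 208 CPM in the CD11c+ libraries and did not pass (0.23 ± 0.12, adjusted p 0.180), and 68.1% of its words are shared, mainly with the overlapping gene model *Gm49368*. Exons on the opposite strand cover 15.1% of *Csf1r* and 12.8% of *Ctsb*, and since the strand setting of the counting is not given in the sources used here, reads of such partners cannot be told apart.

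Of the lining and resident macrophage genes, 17 of 20 tested were lower in CD11c+ cells, 1 was higher and 2 did not pass (median log2 difference -1.84). *Stab1*, a scavenger receptor that takes up modified lipoproteins and matrix fragments, was at 631, 549 and 594 CPM in the CD11c- libraries and 102, 113 and 123 CPM in the CD11c+ libraries. The 2 groups lay far apart, with a log2 difference of -2.39 ± 0.16 (adjusted p 7.03e-09). *Folr2*, a folate receptor of resident macrophages, was at 58.01, 39.3 and 51.5 CPM in the CD11c- libraries and 11.8, 6.78 and 6.44 CPM in the CD11c+ libraries (-2.62 ± 0.30, adjusted p 3.81e-06), although 63.1% of its exon bases lie under the antisense model *Gm10602*. *Lyve1*, a hyaluronan receptor, was at 541, 536 and 374 CPM in the CD11c- libraries and 176, 134 and 101 CPM in the CD11c+ libraries (-1.83 ± 0.24, adjusted p 1.46e-05). *Cx3cr1*, the fractalkine receptor that marks the lining macrophages of mouse joints, was at 18.9, 14.6 and 18.8 CPM in the CD11c- libraries and 2.86, 5.38 and 3.86 CPM in the CD11c+ libraries. It was detected in every library and lower in CD11c+ cells (-2.08 ± 0.40, adjusted p 0.000928). *F13a1*, a clotting factor subunit (-1.95 ± 0.16), and *Pf4*, a platelet-type chemokine (-2.32 ± 0.23), followed the same direction. *Timd4*, a phosphatidylserine receptor and a common marker of long-lived macrophages, was the exception, at 50.9, 33.5 and 28.6 CPM in the CD11c- libraries and 67.3, 127 and 89.2 CPM in the CD11c+ libraries. Its 3 CD11c+ values all lay above the CD11c- values, with a log2 difference of 1.32 ± 0.28 (adjusted p 0.00189).

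Functions tied to clearance went the same way. Of 20 complement genes tested, 13 were lower and 3 higher in CD11c+ cells (median -1.60), and of 24 scavenger and efferocytosis receptors 13 were lower and 2 higher (median -0.85). *C5ar1*, the receptor for the anaphylatoxin C5a, was at 323, 317 and 300.4 CPM in the CD11c- libraries and 60.4, 69.4 and 58.6 CPM in the CD11c+ libraries. The difference was -2.32 ± 0.14 (adjusted p 4.50e-09), the smallest adjusted p among the lower complement genes. *C1qa*, a subunit of the first component, was at 821, 645 and 536 CPM in the CD11c- libraries and 246, 154 and 176 CPM in the CD11c+ libraries (-1.80 ± 0.25, adjusted p 3.73e-05). *C3ar1*, the receptor for C3a (-1.56 ± 0.12), and *C4b* (-2.28 ± 0.25) were also lower, and *C4b* shares 48.3% of its words with *C4a*. Higher in CD11c+ cells were *Cfp*, which encodes properdin (0.68 ± 0.15), and the integrin chains *Itgax* and *Itgb2* (0.39 ± 0.13, adjusted p 0.0361). *Itgb2* did not pass without CD11c- replicate 1 (adjusted p 0.129), CD11c- replicate 3 (0.0655) or CD11c+ replicate 1 (0.0995). Among scavenger receptors, *Msr1* (-2.25 ± 0.22) and *Cd163*, the haemoglobin receptor (-1.55 ± 0.19), were lower, while *Havcr1*, a phosphatidylserine receptor of the same family as *Timd4*, was at 0.310, 0 and 4.92 CPM in the CD11c- libraries and 15.5, 14.7 and 16.9 CPM in the CD11c+ libraries (3.40 ± 0.72, adjusted p 0.00199). Of 8 Fc receptor genes tested, 3 were lower and none higher: *Fcgr1*, *Fcgrt* (-1.29 ± 0.28), the recycling receptor for IgG, and *Fcmr*, the IgM receptor of B cells.

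**Figure D2:**
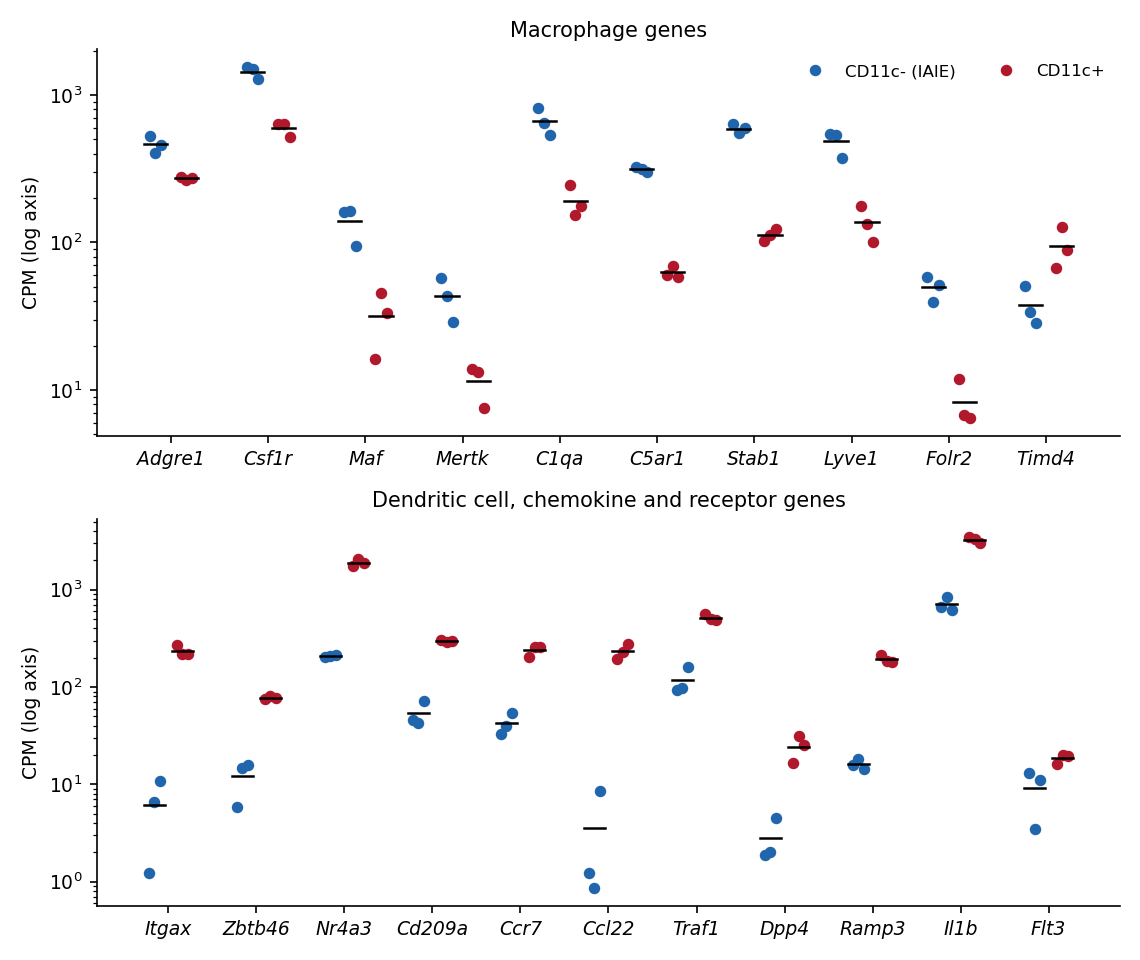
CPM on a log axis in each of the 6 control libraries for macrophage genes (top) and for dendritic cell, chemokine and receptor genes (bottom), with CD11c- libraries in blue, CD11c+ libraries in red and a black line at each mean. The groups do not overlap for any gene drawn, *Timd4* is the only macrophage gene drawn that is higher in CD11c+ cells, and *Flt3* does not pass the test.

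The dendritic cell lists differed in direction, against 10.2% of all genes tested higher and 10.9% lower in CD11c+ cells. Higher were 6 of 16 tested genes shared by conventional dendritic cells, 13 of 17 for the mature state and 5 of 14 for type 2. For type 1 it was 2 of 10, and for plasmacytoid cells none of 8. In the same order of lists, 1, 0, 2, 3 and 3 members were lower. Of 16 shared conventional dendritic cell genes tested, 6 were higher, 1 was lower and 9 did not pass (median 1.07). *Zbtb46*, a transcription factor restricted among myeloid cells largely to conventional dendritic cells (chr2:181387762-181459426, mm10), was at 5.89, 14.6 and 15.7 CPM in the CD11c- libraries and 75.9, 80.7 and 77.7 CPM in the CD11c+ libraries. The CD11c+ values lay within a narrow range far above the CD11c- values, and the log2 difference was 2.71 ± 0.27 (adjusted p 7.75e-07). *Traf1*, an adaptor of tumour necrosis factor receptors, was at 93.99, 98.9 and 161 CPM in the CD11c- libraries and 563, 501 and 485 CPM in the CD11c+ libraries (2.14 ± 0.16, adjusted p 3.43e-08). *Dpp4*, the peptidase CD26, was at 1.86, 2.01 and 4.48 CPM in the CD11c- libraries and 16.7, 31.1 and 25.5 CPM in the CD11c+ libraries (3.19 ± 0.49, adjusted p 0.000101). *Runx3*, a transcription factor of dendritic and T cells, was higher (1.28 ± 0.22, adjusted p 0.000299). *Flt3*, the growth factor receptor of the dendritic cell lineage, was at 13.03, 3.44 and 11.2 CPM in the CD11c- libraries and 16.3, 19.9 and 19.5 CPM in the CD11c+ libraries. Although these values did not overlap, the difference did not pass (1.03 ± 0.52, adjusted p 0.186). *Slamf7*, a receptor of the SLAM family, was the lower member (-0.60 ± 0.16, adjusted p 0.0108), and it did not pass without CD11c+ replicate 3 (adjusted p 0.0767).

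Of 17 mature dendritic cell genes tested, 13 were higher in CD11c+ cells, none was lower and 4 did not pass (median 2.52). *Ccr7*, the receptor that guides mature dendritic cells to lymph nodes, was at 33.2, 39.8 and 53.7 CPM in the CD11c- libraries and 202, 259 and 260.0 CPM in the CD11c+ libraries. No CD11c- library came near the CD11c+ values, and the log2 difference was 2.52 ± 0.19 (adjusted p 2.99e-08). *Ccl22* (chr8:94745590-94751699) and *Ccl17* (chr8:94810453-94812036) are neighbouring mm10 genes for ligands of CCR4, a chemokine receptor of T cells. Both were near the floor in CD11c- libraries, apart from *Ccl22* in CD11c- replicate 3, where the floor was 1.34 CPM. *Ccl22* was at 1.24, 0.860 and 8.51 CPM in the CD11c- libraries and 193, 231 and 274 CPM in the CD11c+ libraries (6.27 ± 0.45, adjusted p 2.40e-08). *Ccl17* was at 0, 1.15 and 2.69 CPM in the CD11c- libraries and 65.3, 68.5 and 59.9 CPM in the CD11c+ libraries (5.79 ± 0.48, adjusted p 6.66e-08). Both fitted log2 differences lay above that of *Itgax* (5.33 ± 0.40), but this order was not tested. Both also depend on CD11c- values that were mostly near the floor. *Tnfrsf9*, the costimulatory receptor 4-1BB, was at 8.996, 4.59 and 3.13 CPM in the CD11c- libraries and 37.9, 36.5 and 41.6 CPM in the CD11c+ libraries (2.74 ± 0.30, adjusted p 2.29e-06). *Cacnb3*, a calcium channel subunit, had no count in any CD11c- library and 6.12, 5.38 and 15.2 CPM in CD11c+ libraries, which is at least 8.53-fold higher against the floor of 3 counts and at least 5.50-fold without CD11c+ replicate 3. Requiring 10 counts in every control library left 5 higher members of this list, since several of these genes were near 0 in CD11c- cells.

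Genes that divide conventional dendritic cells by kind gave no single direction. Among type 2 genes, 5 of 14 tested were higher and 2 lower (median 0.42). *Cd209a*, a lectin of monocyte-derived and type 2 dendritic cells, was at 45.6, 43.003 and 72.1 CPM in the CD11c- libraries and 304, 289.9 and 299 CPM in the CD11c+ libraries. Its groups did not overlap and differed by 2.49 ± 0.19 (adjusted p 3.48e-08). *Tnip3* (1.81 ± 0.17), *Irf4*, a transcription factor of type 2 dendritic cells (1.08 ± 0.15), and *Il1r2*, the decoy receptor for interleukin-1 (2.06 ± 0.36), were higher as well. *Clec10a*, a galactose lectin that also stands in the interstitial macrophage list, was lower (-1.13 ± 0.24, adjusted p 0.00214), and 14.8% of its words are shared, mainly with *Mgl2*. *Ltb*, the other lower member (-3.73 ± 1.21, adjusted p 0.0335), did not pass in 4 fits that left out 1 library: CD11c- replicate 1 (adjusted p 0.191), CD11c- replicate 2 (0.0578), CD11c+ replicate 1 (0.103) and CD11c+ replicate 2 (0.127). Among type 1 genes, 2 of 10 tested were higher and 3 lower (median -0.15). *Xcr1*, the chemokine receptor that defines these cells, was at 8.69, 12.3 and 15.7 CPM in the CD11c- libraries and 13.1, 15.2 and 11.2 CPM in the CD11c+ libraries. The groups overlapped (0.11 ± 0.38, adjusted p 0.877). *Clec9a*, another defining receptor, was too low to test, with 0, 10 and 0 counts in CD11c- and 16, 1 and 5 counts in CD11c+ libraries. *Irf8*, the transcription factor on which type 1 dendritic cells depend, was lower, at 123, 124 and 113 CPM in the CD11c- libraries and 26.5, 33.4 and 31.3 CPM in the CD11c+ libraries (-1.97 ± 0.19, adjusted p 5.33e-07). *Naaa*, a lysosomal amidase, was higher (1.05 ± 0.16, adjusted p 8.68e-05), and *Rab7b*, a regulator of endosomal traffic, was lower (-0.60 ± 0.11). *Wdfy4*, needed for cross-presentation, was called higher (0.78 ± 0.21, adjusted p 0.0124), but not without CD11c- replicate 1 (adjusted p 0.0599) or CD11c+ replicate 1 (0.0581). *Ifi205*, which shares 22.1% of its words with relatives, was called lower (-0.85 ± 0.27, adjusted p 0.0279), but not without CD11c- replicate 1 (adjusted p 0.05003), CD11c- replicate 2 (0.0697), CD11c- replicate 3 (0.0788), CD11c+ replicate 1 (0.125) or CD11c+ replicate 2 (0.0960).

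Plasmacytoid dendritic cell genes were not higher in CD11c+ cells, with 3 of 8 tested lower and none higher (median -0.93). *Siglech*, a surface lectin of these cells that some tissue macrophages also carry, was at 11.2, 10.3 and 7.61 CPM in the CD11c- libraries and 0.816, 0.701 and 0 CPM in the CD11c+ libraries. Every CD11c+ library stood at or under 3 counts, so the gene was at least 11.3-fold lower in CD11c+ cells (adjusted p 0.000235). *Tcf4*, the transcription factor that maintains the lineage, was at 95.5, 94.03 and 96.2 CPM in the CD11c- libraries and 33.5, 69.4 and 46.6 CPM in the CD11c+ libraries (-0.92 ± 0.21, adjusted p 0.00311). *Atp1b1*, a subunit of the sodium pump, was also called lower (-4.04 ± 1.09, adjusted p 0.0112), but not without CD11c- replicate 2 (adjusted p 0.0597) or CD11c+ replicate 2 (0.0513).

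Of 19 monocyte genes tested, 4 were higher, 2 were lower and 13 did not pass (median 0.30). *Ccr2*, the receptor with which monocytes leave the marrow, was at 87.5, 74.3 and 80.1 CPM in the CD11c- libraries and 121, 137 and 124 CPM in the CD11c+ libraries. It was present in both subsets and higher in CD11c+ cells (0.66 ± 0.19, adjusted p 0.0156), but it did not pass without CD11c- replicate 2 (adjusted p 0.0574). *Ms4a6c* was lower (-0.94 ± 0.23, adjusted p 0.00535), with 53.1% of its exon bases under an antisense model and 21.9% of its words shared. *Vcan*, a matrix proteoglycan that stands in both this and the resident macrophage list, was the other lower member (-1.05 ± 0.35, adjusted p 0.0362), but not without CD11c- replicate 2 (adjusted p 0.194), CD11c+ replicate 1 (0.128) or CD11c+ replicate 3 (0.151). *Treml4* (1.99 ± 0.51, adjusted p 0.00805) did not pass without CD11c+ replicate 2 (adjusted p 0.0502). *Gsr*, glutathione reductase (0.60 ± 0.18, adjusted p 0.0225), did not pass without CD11c- replicate 1 (adjusted p 0.0703) or CD11c+ replicate 2 (0.0507). The integrin chain *Itga4* (0.62 ± 0.20, adjusted p 0.0305) did not pass without CD11c- replicate 2 (adjusted p 0.136), CD11c+ replicate 2 (0.0588) or CD11c+ replicate 3 (0.137). The higher count of this list was therefore 2 without CD11c- replicate 2 and 1 without CD11c+ replicate 2. In the interstitial macrophage list, 4 of 9 tested were higher and 3 lower (median 0.55). *Ear2*, a ribonuclease of the eosinophil family, was at 11.5, 22.6 and 17.01 CPM in the CD11c- libraries and 148, 149.6 and 150.2 CPM in the CD11c+ libraries (3.12 ± 0.21, adjusted p 8.83e-09), and 60.5% of its words are shared with *Ear1* and its relatives. *Retnla*, a secreted protein of alternatively activated macrophages (0.77 ± 0.12, adjusted p 0.000138), and *Fcrls* (1.15 ± 0.25) were higher, while the chemokine *Ccl8* was lower (-2.69 ± 0.46).

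**Figure D3:**
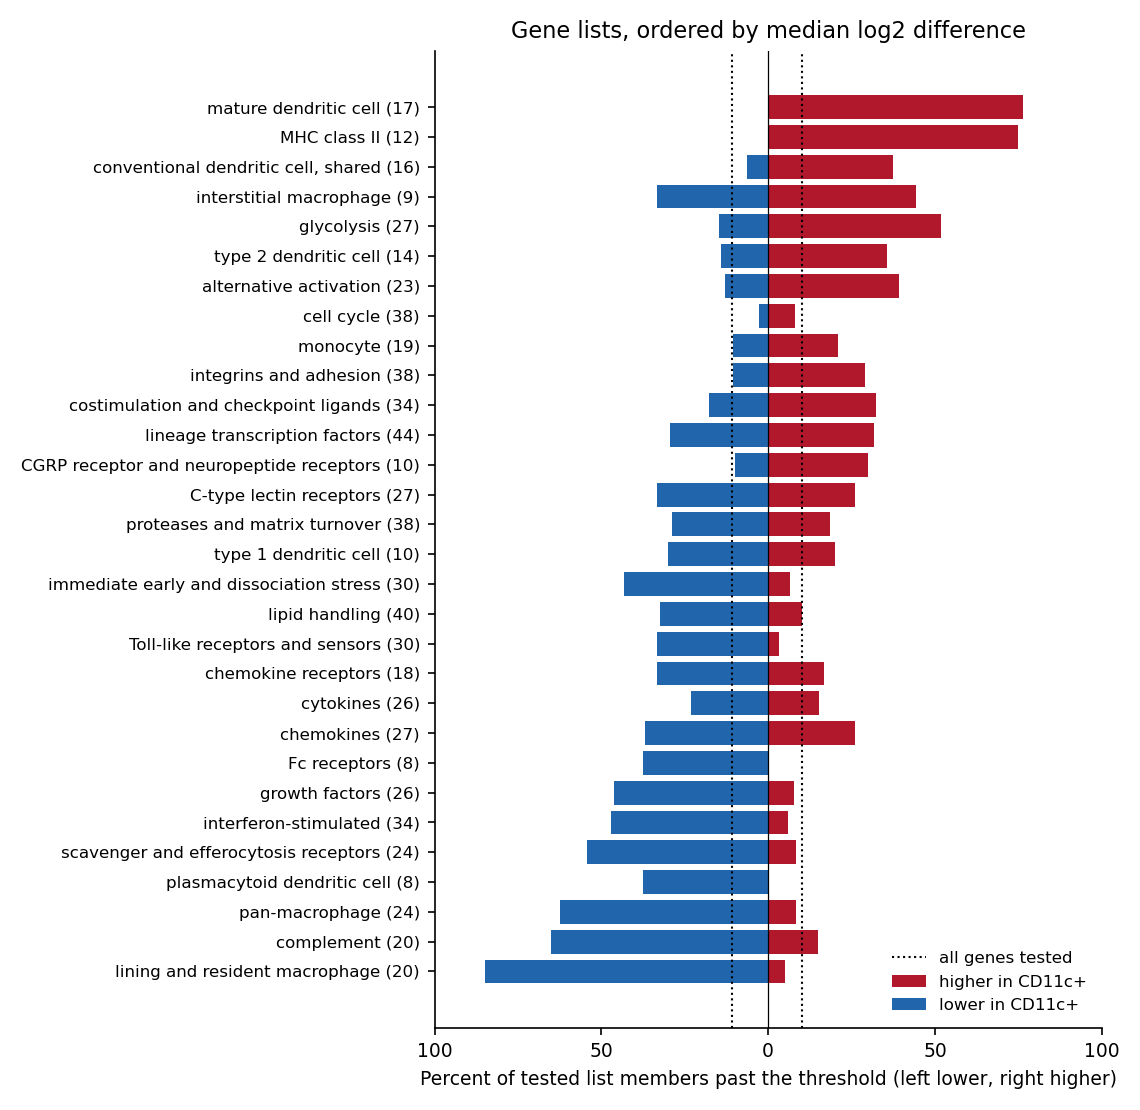
For each list, the percent of its tested members past an adjusted p of 0.05, with members higher in CD11c+ cells to the right in red and lower to the left in blue, the number tested in brackets, and dotted lines at the 10.2% and 10.9% of all genes tested. Mature dendritic cell genes (13 of 17 higher) stand at the top and lining and resident macrophage genes (17 of 20 lower) at the bottom.

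Transcription factors that shape these lineages differed in both directions: of 44 tested, 14 were higher and 13 lower in CD11c+ cells. *Nr4a3*, an orphan nuclear receptor that responds to stimulation and takes part in dendritic cell migration (chr4:48045153-48086447, mm10), was at 203, 208 and 212 CPM in the CD11c- libraries and 1747, 2053 and 1892 CPM in the CD11c+ libraries. The replicates of each subset lay close together, and the log2 difference was 3.19 ± 0.16 (adjusted p 1.62e-10). *Zeb1*, a repressor (2.20 ± 0.19), and *Bhlhe40*, a factor of macrophage proliferation (1.28 ± 0.12), were higher, besides *Zbtb46*, *Irf4* and *Runx3*. On the macrophage side, *Maf*, which restrains self-renewal of macrophages, was at 161, 164 and 94.5 CPM in the CD11c- libraries and 16.3, 45.6 and 33.5 CPM in the CD11c+ libraries (-2.11 ± 0.29, adjusted p 3.17e-05). *Irf8* and *Runx1* (-0.95 ± 0.13) were lower too. *Spi1*, which encodes PU.1 and is shared by both lineages, was at 301, 313 and 267 CPM in the CD11c- libraries and 273, 274 and 262 CPM in the CD11c+ libraries (-0.12 ± 0.12, adjusted p 0.541). The lower count depended on the libraries: it was 6 without CD11c- replicate 2 or CD11c+ replicate 2, and 8 without CD11c- replicate 3, CD11c+ replicate 1 or CD11c+ replicate 3.

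Chemokines differed in both directions. Of 27 tested, 7 were higher and 10 lower in CD11c+ cells (median -0.66). Besides *Ccl17* and *Ccl22*, the neutrophil attractant *Cxcl3* was at 445, 536 and 457 CPM in the CD11c- libraries and 1519, 1066 and 1151 CPM in the CD11c+ libraries (1.38 ± 0.16, adjusted p 4.27e-06), and *Ccl9* was higher (0.74 ± 0.13). The monocyte attractants *Ccl2* and *Ccl7* were lower. *Ccl2* was at 968, 1156 and 922 CPM in the CD11c- libraries and 242, 256 and 138 CPM in the CD11c+ libraries (-2.27 ± 0.20, adjusted p 2.39e-07). *Ccl7* was at 593, 536 and 539 CPM in the CD11c- libraries and 89.7, 139 and 42.7 CPM in the CD11c+ libraries (-2.62 ± 0.31, adjusted p 5.77e-06). *Ccl3*, a ligand of CCR1, was lower as well (-1.92 ± 0.21), and neither *Ccl2*, *Ccl7* nor *Ccl3* overlapped between the subsets. The chemokine receptor list also holds receptors for other ligands, such as *S1pr1*. Of its 18 tested genes, 3 were higher, with *Ccr7* and *Ccr2* among them. Lower were 6, among them *Cmklr1*, the chemerin receptor (-1.63 ± 0.27), *Ccr1* (-0.94 ± 0.18) and *S1pr1* (-1.42 ± 0.35).

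Cytokines followed no common direction, with 4 of 26 tested higher and 6 lower (median -0.52). *Il1b*, the inflammasome-released pyrogen, was at 658, 847 and 615 CPM in the CD11c- libraries and 3505, 3300.1 and 2999 CPM in the CD11c+ libraries. All CD11c+ values lay far above the CD11c- values, with a difference of 2.21 ± 0.18 (adjusted p 5.27e-08). *Il6* was at 46.2, 84.3 and 50.6 CPM in the CD11c- libraries and 179, 133 and 162 CPM in the CD11c+ libraries (1.38 ± 0.28, adjusted p 0.00131). Lower in CD11c+ cells was *Tnf*, at 386, 414 and 386 CPM in the CD11c- libraries and 110.1, 128 and 102 CPM in the CD11c+ libraries (-1.80 ± 0.18, adjusted p 8.42e-07). *Il10*, the anti-inflammatory cytokine, was at 49.6, 58.8 and 60.9 CPM in the CD11c- libraries and 18.8, 9.35 and 7.72 CPM in the CD11c+ libraries (-2.29 ± 0.35, adjusted p 9.32e-05). *Osm* was lower too (-1.19 ± 0.17), as was *Ifnb1*, interferon beta, at 45.6, 30.1 and 54.2 CPM in the CD11c- libraries and 4.90, 7.01 and 4.08 CPM in the CD11c+ libraries (adjusted p 0.000755). The list had 2 higher members without CD11c- replicate 3 or without CD11c+ replicate 1, and the calls of the other two were lost in several fits that left out 1 library. *Il12b*, a subunit of interleukins 12 and 23, was at 0.620, 0.860 and 0 CPM in the CD11c- libraries and 9.79, 1.87 and 12.01 CPM in the CD11c+ libraries (adjusted p 0.0226), at least 7.56-fold higher, and did not pass without CD11c- replicate 1 (adjusted p 0.0604), CD11c- replicate 3 (0.0736), CD11c+ replicate 1 (0.0574) or CD11c+ replicate 3 (0.101). *Il18* (1.37 ± 0.44, adjusted p 0.0299) did not pass without CD11c- replicate 2 (adjusted p 0.0675), CD11c- replicate 3 (0.104), CD11c+ replicate 1 (0.0762) or CD11c+ replicate 2 (0.0542).

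Of the chains of the CGRP receptor, *Ramp1* was higher in CD11c+ cells before any CGRP was given, whereas *Calcrl* did not pass. The receptor pairs a seven-helix chain, *Calcrl*, with the accessory protein *Ramp1*, while *Ramp3* turns the same chain into an adrenomedullin receptor. *Ramp3* (chr11:6658521-6677475, mm10) was at 15.8, 18.3 and 14.3 CPM in the CD11c- libraries and 213, 187 and 180.4 CPM in the CD11c+ libraries. Its log2 difference was 3.57 ± 0.16 (adjusted p 5.73e-11), with all CD11c+ values far above all CD11c- values. *Ramp1* was at 7.76, 7.17 and 4.92 CPM in the CD11c- libraries and 31.004, 15.4 and 24.5 CPM in the CD11c+ libraries, higher in all CD11c+ libraries (1.81 ± 0.41, adjusted p 0.00319). *Calcrl* was at 27.3, 29.5 and 45.2 CPM in the CD11c- libraries and 43.2, 32.5 and 49.6 CPM in the CD11c+ libraries, and the groups overlapped (0.31 ± 0.22, adjusted p 0.378). The other called members of this list of 10 tested genes were purinergic receptors: *P2ry14* was at least 4.63-fold higher and *P2ry13* at least 4.67-fold lower in CD11c+ cells. *P2ry14* did not pass without CD11c+ replicate 3 (adjusted p 0.0546), nor *P2ry13* without CD11c- replicate 1 (adjusted p 0.0614), CD11c+ replicate 1 (0.0597) or CD11c+ replicate 3 (0.0744). In all, 3 members were higher and 1 lower (median 0.18).

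The list of costimulation and checkpoint ligands also holds receptors, such as *Cd200r1*. Of its 34 tested genes, 11 were higher and 6 lower (median 0.26). *Cd80*, a ligand of CD28, was at 25.1, 23.2 and 22.8 CPM in the CD11c- libraries and 90.2, 88.6 and 83.5 CPM in the CD11c+ libraries. The replicates of each subset lay close together and the difference was 1.88 ± 0.23 (adjusted p 9.47e-06). *Cd24a* (2.26 ± 0.21), *Cd200r1*, an inhibitory receptor (1.35 ± 0.18), and *Siglecg* (2.88 ± 0.44) were higher, and *Siglec1*, the sialoadhesin of resident macrophages (-1.52 ± 0.21), *Sirpa* (-0.54 ± 0.12) and *Lilrb4a* (-0.58 ± 0.14) lower. *Lilrb4a* shares 55.7% of its words with *Lilr4b* and others and did not pass without CD11c- replicate 3 (adjusted p 0.0584) or CD11c+ replicate 2 (0.0611). The lower count of the list was 3 without CD11c+ replicate 2 or CD11c+ replicate 3.

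Pattern recognition receptors differed in both directions. Among C-type lectins, 7 of 27 tested were higher and 9 lower (median 0.16). *Clec7a*, the beta-glucan receptor dectin-1, was at 115, 116 and 207 CPM in the CD11c- libraries and 411, 495 and 489 CPM in the CD11c+ libraries (1.68 ± 0.25, adjusted p 7.65e-05). *Ly75*, the endocytic receptor DEC-205 of dendritic cells, was at 2.17, 4.59 and 0 CPM in the CD11c- libraries and 15.9, 32.7 and 42.3 CPM in the CD11c+ libraries (3.61 ± 0.58, adjusted p 0.000162). *Klrk1*, the NKG2D receptor, was higher (2.57 ± 0.34), and *Clec4d*, a receptor for mycobacterial lipid, lower (-0.63 ± 0.13). *Cd209f* (-3.17 ± 0.46) and *Cd209g* (-3.23 ± 0.46), relatives of *Cd209a* that share 36.3% and 20.1% of their words with each other, were lower, opposite in direction to *Cd209a*. Of 30 Toll-like receptors and sensors tested, 10 were lower and 1, *Nod2* (1.07 ± 0.20), was higher (median -0.37), with *Tlr7* at 69.2, 85.1 and 56.4 CPM in the CD11c- libraries and 13.9, 20.3 and 12.7 CPM in the CD11c+ libraries (-2.16 ± 0.24, adjusted p 3.06e-06). *Tlr2* (-1.19 ± 0.19), *Nod1* (-2.01 ± 0.38) and *Ifih1*, a sensor of viral RNA (-1.57 ± 0.30), were lower as well. Without CD11c+ replicate 1 the lower count was 6.

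Interferon-stimulated genes were lower in CD11c+ cells for 16 of 34 tested, higher for 2 and not called for 16 (median -0.78). *Rsad2*, which encodes the antiviral enzyme viperin, was at 748, 795 and 1171 CPM in the CD11c- libraries and 137, 295 and 227 CPM in the CD11c+ libraries. The groups did not overlap and differed by -2.04 ± 0.34 (adjusted p 0.000200). *Oas2*, a synthase of the RNA-degrading pathway, was at 50.3, 45.01 and 89.5 CPM in the CD11c- libraries and 7.75, 11.5 and 13.3 CPM in the CD11c+ libraries (-2.45 ± 0.29, adjusted p 5.66e-06). *Iigp1*, an immunity-related GTPase, was at 8.996, 14.6 and 20.6 CPM in the CD11c- libraries and 1.22, 0.468 and 0.858 CPM in the CD11c+ libraries (-4.13 ± 0.46, adjusted p 3.06e-06). *Cmpk2*, a mitochondrial nucleotide kinase, was lower as well (-2.22 ± 0.37). In *Rsad2*, *Oas2* and *Iigp1* CD11c- replicate 3 had the highest value, and without this library the lower count was 10. The higher members were both guanylate-binding proteins. *Gbp2* was at 60.2, 43.6 and 84.2 CPM in the CD11c- libraries and 121, 121 and 118 CPM in the CD11c+ libraries (0.95 ± 0.24, adjusted p 0.00788). *Gbp4*, which shares 14.3% of its words with relatives, was higher as well (2.80 ± 0.69, adjusted p 0.00597). *Ifit1* was lower (-1.67 ± 0.32), whereas *Oas3* was at 14.6, 20.6 and 28.6 CPM in the CD11c- libraries and 23.3, 17.1 and 24.03 CPM in the CD11c+ libraries and did not pass (0.03 ± 0.24, adjusted p 0.957).

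The promoters of 4 of these genes are printed because they carry the same short motif while the genes differ in direction, and they were picked with both the matches and the calls in view. The sequences are the 250 bases before the start of the transcript from RefSeq (GRCm38.p6, the same build as mm10), written 5′ to 3′ on the strand of the gene, and capitals mark each match, on either strand, to GAAANNGAAA, the core of the interferon-stimulated response element. *Rsad2* (chr12:26456453-26456702, minus strand) and *Ifit1* (chr19:34640639-34640888, plus strand) were lower in CD11c+ cells, *Oas3* (chr5:120777660-120777909, minus strand) did not pass, and *Gbp2* (chr3:142620413-142620662, plus strand) was higher.
Rsad2: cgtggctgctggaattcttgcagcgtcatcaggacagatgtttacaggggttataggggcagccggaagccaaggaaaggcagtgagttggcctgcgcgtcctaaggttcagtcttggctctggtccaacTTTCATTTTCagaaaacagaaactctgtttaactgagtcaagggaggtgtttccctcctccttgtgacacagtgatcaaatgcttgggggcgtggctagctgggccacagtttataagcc
Ifit1: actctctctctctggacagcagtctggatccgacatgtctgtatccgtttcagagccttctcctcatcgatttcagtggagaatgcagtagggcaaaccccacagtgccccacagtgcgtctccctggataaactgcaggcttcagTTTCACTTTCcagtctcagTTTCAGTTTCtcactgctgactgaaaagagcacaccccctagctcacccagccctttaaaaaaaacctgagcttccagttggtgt
Oas3: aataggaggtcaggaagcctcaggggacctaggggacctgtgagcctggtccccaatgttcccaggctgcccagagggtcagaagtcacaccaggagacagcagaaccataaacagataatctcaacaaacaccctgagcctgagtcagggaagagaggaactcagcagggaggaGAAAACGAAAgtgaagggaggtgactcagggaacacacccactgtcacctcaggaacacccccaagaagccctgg
Gbp2: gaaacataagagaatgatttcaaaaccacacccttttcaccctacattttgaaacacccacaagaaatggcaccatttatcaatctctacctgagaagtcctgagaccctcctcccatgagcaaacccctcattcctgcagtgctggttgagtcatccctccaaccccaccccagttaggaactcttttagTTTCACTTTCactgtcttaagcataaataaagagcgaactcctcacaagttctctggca

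The core occurred in 978 of 32851 promoter windows of this length (2.98%), in 323 of 11297 windows of tested genes (2.86%), in 41 of 1178 windows of genes higher in CD11c+ cells (3.48%) and in 56 of 1323 windows of genes lower in them (4.23%). For 26 of the 36 listed interferon-stimulated genes a promoter was found, with 31 windows. Of these, 8 of 13 windows of lower members, 5 of 15 windows of members that did not pass and the 1 window of a higher member held the core. The other two windows belong to members too low to test. In all, 5 motifs were searched on both strands, each counted by itself even where matches overlap, and the response element was chosen for printing after the shares were seen. The shares of the other 4 follow in the order of all windows, tested genes, higher genes and lower genes. AAAGGTCA, a site of NR4A receptors, occurred in 1.34%, 0.938%, 0.934% and 1.13%. TTCNNNNGAA, the palindrome bound by STAT6, occurred in 5.85%, 4.72%, 4.92% and 4.23%. GGGANNTTCC, a form of the NF-kB site, occurred in 1.21%, 1.25%, 2.21% and 1.51%. TGCTGAC, the core bound by MAF proteins, occurred in 3.81%, 3.05%, 2.63% and 3.63%. A match describes the sequence and does not show that a factor binds there.

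Surface adhesion and matrix turnover contained some of the widest differences. Among integrins and adhesion molecules, 11 of 38 tested were higher and 4 lower (median 0.26). *Itgb8*, the chain that with alpha V activates latent TGF-beta, was at 0.620, 2.29 and 1.34 CPM in the CD11c- libraries and 31.4, 33.7 and 34.5 CPM in the CD11c+ libraries. It was at or near the floor in CD11c- cells and differed by 4.49 ± 0.50 (adjusted p 3.26e-06). *Cd9*, a tetraspanin (1.78 ± 0.19), and *Selplg*, the selectin ligand (1.14 ± 0.15), were higher, and *Itga9* (-1.47 ± 0.25) and *Itgb5* (-0.88 ± 0.21) lower. The other two lower members, *Itgb3* (adjusted p 0.0411) and *Itga2* (adjusted p 0.0457), did not pass in most fits that left out a control library. For *Itgb3* the adjusted p was 0.145 without CD11c- replicate 1, 0.107 without CD11c- replicate 2, 0.116 without CD11c+ replicate 1, 0.0545 without CD11c+ replicate 2 and 0.0684 without CD11c+ replicate 3. For *Itga2* it was 0.123 without CD11c- replicate 1, 0.120 without CD11c- replicate 2, 0.106 without CD11c+ replicate 1 and 0.176 without CD11c+ replicate 2.

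Of 38 proteases and matrix turnover genes tested, 7 were higher and 11 lower (median -0.09). *Mmp12*, the macrophage elastase, was at 11.8, 12.6 and 23.7 CPM in the CD11c- libraries and 136, 80.4 and 123 CPM in the CD11c+ libraries (2.86 ± 0.23, adjusted p 5.27e-08). *Mmp25*, a membrane-anchored metalloproteinase, was at 5.58, 8.03 and 11.6 CPM in the CD11c- libraries and 74.7, 105 and 101 CPM in the CD11c+ libraries (3.52 ± 0.22, adjusted p 4.99e-09). Both were higher in every CD11c+ library. *Dcstamp*, needed for the fusion of osteoclasts and giant cells, was at 2.48, 1.15 and 3.58 CPM in the CD11c- libraries and 80.4, 55.4 and 58.6 CPM in the CD11c+ libraries (4.81 ± 0.44, adjusted p 3.30e-07). *Adam8*, a sheddase of leukocytes, was higher too (1.24 ± 0.16). Lower in CD11c+ cells was *Mmp9*, the gelatinase B, at 58.6, 51.03 and 36.7 CPM in the CD11c- libraries and 11.8, 3.04 and 5.36 CPM in the CD11c+ libraries (-2.94 ± 0.45, adjusted p 8.84e-05). *Plau*, urokinase (-1.81 ± 0.23), and the lysosomal proteases *Ctsl* (-1.57 ± 0.18) and *Ctsb* shared this direction, and 26.8% of the exon bases of *Ctsl* lie under an antisense model.

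In the alternative activation list, 9 of 23 tested were higher and 3 lower (median 0.39). *Fn1*, fibronectin, was at 1534, 1929.7 and 1034 CPM in the CD11c- libraries and 6398, 5498 and 5515 CPM in the CD11c+ libraries. The groups were wide apart (1.95 ± 0.27, adjusted p 3.17e-05), whereas *Mrc1* and *Clec10a* of the same list were lower. *Myc* was the third lower member (-1.04 ± 0.31, adjusted p 0.0192) and did not pass without CD11c- replicate 1 (adjusted p 0.103), CD11c- replicate 3 (0.0580) or CD11c+ replicate 2 (0.116). Growth factors were lower for 12 of 26 tested and higher for 2 (median -0.76). *Igf1*, a product of resident macrophages, was at 119, 91.2 and 72.1 CPM in the CD11c- libraries and 16.7, 13.1 and 30.9 CPM in the CD11c+ libraries (-2.20 ± 0.30, adjusted p 2.62e-05). *Hbegf* (-1.78 ± 0.18), *Gdf15* (-1.87 ± 0.25) and *Grn*, progranulin (-1.09 ± 0.13), were lower, and *Vegfa* was higher (0.81 ± 0.14). *Inhba*, the activin subunit, was higher at 30.1, 60.8 and 152 CPM in the CD11c- libraries and 159.9, 168 and 281 CPM in the CD11c+ libraries (1.36 ± 0.35, adjusted p 0.00881), but not past the threshold without CD11c- replicate 2 (adjusted p 0.0505).

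Lipid handling genes were lower for 13 of 40 tested and higher for 4 (median -0.33). *Apoe*, the lipoprotein component, was at 6175, 5304 and 3997 CPM in the CD11c- libraries and 1338, 1352 and 1206 CPM in the CD11c+ libraries (-1.99 ± 0.22, adjusted p 2.24e-06). *Hpgds*, which makes prostaglandin D2 (-2.14 ± 0.23), *Abca1*, the cholesterol exporter (-0.96 ± 0.14), and *Npc1* (-0.69 ± 0.13) were lower. Higher were *Lpl*, lipoprotein lipase, at 59.9, 132 and 124 CPM in the CD11c- libraries and 343, 374 and 497 CPM in the CD11c+ libraries (1.94 ± 0.23, adjusted p 5.85e-06), and *Ptgs2*, which encodes COX-2 (1.32 ± 0.22). *Tbxas1*, thromboxane synthase, was called higher (0.47 ± 0.15, adjusted p 0.0296), but not without CD11c- replicate 2 (adjusted p 0.0618), CD11c- replicate 3 (0.0751) or CD11c+ replicate 1 (0.104). The lower count was 7 without CD11c+ replicate 2.

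Glycolysis and hypoxia-responsive genes were higher for 14 of 27 tested and lower for 4 (median 0.52). Among them *Slc2a3*, the glucose transporter GLUT3, was at 24.8, 23.8 and 16.6 CPM in the CD11c- libraries and 66.1, 115 and 89.9 CPM in the CD11c+ libraries (2.05 ± 0.23, adjusted p 3.99e-06), while *Hk3*, a hexokinase, was at 278, 329 and 338 CPM in the CD11c- libraries and 124, 136 and 138 CPM in the CD11c+ libraries (-1.25 ± 0.13, adjusted p 1.70e-06). *Pfkp* (1.06 ± 0.12) and *Slc16a3*, the lactate exporter (1.09 ± 0.15), were higher, and *Pfkfb3* (-1.04 ± 0.14) and *Adm*, adrenomedullin (-1.52 ± 0.30), lower. *Hk1* was called lower (-0.38 ± 0.12, adjusted p 0.0305), but not without CD11c- replicate 2 (adjusted p 0.0521), CD11c- replicate 3 (0.128), CD11c+ replicate 1 (0.0536), CD11c+ replicate 2 (0.200) or CD11c+ replicate 3 (0.147).

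Cell cycle genes were not called for 34 of 38 tested, and 3 were higher and 1 lower (median 0.35), so that 4 of 38 passed against 21.2% of all genes. *Mki67*, the proliferation antigen, was at 84.998, 80.6 and 97.6 CPM in the CD11c- libraries and 155, 174 and 136 CPM in the CD11c+ libraries (0.82 ± 0.20, adjusted p 0.00557). Without CD11c- replicate 1 the higher count was 5. *Tk1* was higher (1.69 ± 0.34), whereas *Pcna* was lower (-0.93 ± 0.17), and 23.3% of the words of *Pcna* occur in pseudogenes and other genes. *Top2a* (1.13 ± 0.34, adjusted p 0.0213) did not pass without CD11c- replicate 2 (adjusted p 0.102), CD11c- replicate 3 (0.0501), CD11c+ replicate 2 (0.0565) or CD11c+ replicate 3 (0.0546). Immediate early genes, which also respond to tissue dissociation, were lower for 13 of 30 tested and higher for 2 (median -0.32). *Jun* was at 1719.5, 1265 and 1321 CPM in the CD11c- libraries and 624, 482 and 577 CPM in the CD11c+ libraries (-1.36 ± 0.16, adjusted p 4.33e-06). *Egr1* was at 624, 503 and 419 CPM in the CD11c- libraries and 270.5, 200.4 and 187 CPM in the CD11c+ libraries (-1.24 ± 0.18, adjusted p 7.12e-05). *Ier3* (-0.90 ± 0.12) and *Fosl1* (-1.02 ± 0.15, with 57.2% of its exon bases under the antisense gene *Ccdc85b*) were lower too. *Fosl2* (0.67 ± 0.13) and *Nfkbia* (0.45 ± 0.10) were higher. The summed level of this list was 25015 to 37538 CPM in CD11c- and 18788 to 19941 CPM in CD11c+ libraries, so it moved with the subsets beside the cytokines and chemokines above, and its part in those differences was not tested.

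The largest differences were taken from genes of at least 5 CPM in the higher subset whose libraries did not overlap. Toward CD11c+ cells these were, besides *Itgax*, *Ccl22*, *Ccl17*, *Cacnb3*, *Dcstamp* and *Itgb8*, the serine protease inhibitor *Serpinb9b*, *Upb1*, *Slc27a3*, *Ccdc170*, *Mpp2* and *Adgrg5*. *Serpinb9b* was at 0, 1.15 and 0.448 CPM in the CD11c- libraries and 22.03, 27.4 and 48.1 CPM in the CD11c+ libraries (5.81 ± 0.56, adjusted p 5.23e-07). *Upb1*, an enzyme of pyrimidine breakdown, was at 0.620, 0.287 and 3.58 CPM in the CD11c- libraries and 43.2, 30.2 and 35.8 CPM in the CD11c+ libraries (4.78 ± 0.68, adjusted p 4.31e-05). *Ccdc170* was at least 8.88-fold, *Mpp2* at least 5.003-fold and *Adgrg5* at least 5.63-fold higher, with every CD11c- library at or under 3 counts, and the bound of *Mpp2* was 3.01 without CD11c+ replicate 1. Toward CD11c- cells stood several genes of connective tissue: *Col6a3*, *Prelp* (at least 6.31-fold lower in CD11c+ cells), *Col1a1*, *Thbs4* (at least 10.9-fold), *Cxcl12* (at least 10.02-fold), *Col6a2* (-4.36 ± 0.90) and *Serpinf1* (-4.33 ± 0.56). The rest were *Kcnk5* (at least 6.98-fold lower in CD11c+ cells), *Armcx6* (at least 14.9-fold, with some of its words shared with *Gm16397*), *Fcmr* (at least 13.5-fold), *AA474408* (at least 8.39-fold) and *Siglech*. The bound of *Prelp* was 2.76 without CD11c- replicate 1, and that of *Fcmr* was 6.64 without CD11c- replicate 2.

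Markers of other cell types moved with the subsets and are given with these genes. *Col1a1*, the main chain of type I collagen, was at 35.1, 670.0 and 91.8 CPM in the CD11c- libraries and 9.38, 10.3 and 5.79 CPM in the CD11c+ libraries. CD11c- replicate 2 stood far above the other two CD11c- libraries, all of which exceeded the CD11c+ libraries (-4.99 ± 0.89, adjusted p 0.000444). *Col6a3* was at 5.58, 17.5 and 142 CPM in the CD11c- libraries and 0.408, 0 and 0.644 CPM in the CD11c+ libraries, at least 64.4-fold lower in CD11c+ cells, with CD11c- replicate 3 the highest and a bound of 13.5 without it. Of 10 fibroblast genes tested, 6 were lower and none higher, and the list summed to 375 to 1566 CPM in CD11c- and 213 to 288 CPM in CD11c+ libraries. Most of the CD11c+ sum was *Pdpn* (0.20 ± 0.15, adjusted p 0.409), which macrophages also express, while *Dcn* was at 20.5, 42.4 and 39.4 CPM in the CD11c- libraries and 2.45, 1.40 and 1.93 CPM in the CD11c+ libraries (-4.17 ± 0.85). *Col1a2* was at 28.5, 284 and 51.03 CPM in the CD11c- libraries and 6.12, 5.85 and 10.3 CPM in the CD11c+ libraries (adjusted p 0.000307), and *Col3a1* was lower as well (-4.07 ± 0.76). *Pdgfra* (at least 5.83-fold lower, and 3.22-fold without CD11c- replicate 2) did not pass without CD11c- replicate 2 (adjusted p 0.0539) or CD11c+ replicate 3 (0.0501), and *Fap* (-2.52 ± 0.70, adjusted p 0.0142) did not pass without CD11c- replicate 1 (adjusted p 0.0668), CD11c+ replicate 1 (0.0510) or CD11c+ replicate 2 (0.0739). Leaving out CD11c- replicate 2 gave 2174 genes past the threshold, and 1991 of the 2526 kept their call and direction.

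B cell genes were lower in CD11c+ cells for 8 of 11 tested and higher for none, with sums of 479 to 611 CPM in CD11c- and 155 to 179 CPM in CD11c+ libraries. *Cd79a*, a chain of the B cell receptor, was at 17.1, 36.4 and 11.2 CPM in the CD11c- libraries and 0.408, 2.81 and 1.29 CPM in the CD11c+ libraries (-3.73 ± 0.72, adjusted p 0.000909), with 12.2% of its words shared with *Gm32220*. *Ighm* was at 110.4, 166 and 112 CPM in the CD11c- libraries and 25.3, 41.6 and 28.96 CPM in the CD11c+ libraries (-2.01 ± 0.25, adjusted p 9.11e-06). *Ms4a1*, which encodes CD20, was at 4.65, 17.8 and 17.9 CPM in the CD11c- libraries and 2.86, 0.234 and 0.644 CPM in the CD11c+ libraries (-3.61 ± 0.84, adjusted p 0.00403). *Blnk* (-1.33 ± 0.12) makes up much of the sum and is also expressed by macrophages, *Cd79b* (-2.82 ± 0.67) was lower, and *Pax5* (adjusted p 0.0129) and *Ebf1* (adjusted p 0.0146) lost their calls when 1 library was left out. *Pax5* did so without CD11c- replicate 2 (adjusted p 0.0668), CD11c+ replicate 1 (0.0505) or CD11c+ replicate 3 (0.0726), and *Ebf1* without CD11c+ replicate 2 (adjusted p 0.0693) or CD11c+ replicate 3 (0.0863). Of the T and NK cell list, 3 genes could be tested. *Il7r*, a cytokine receptor of lymphocytes and some myeloid cells, was at 66.4, 81.4 and 159 CPM in the CD11c- libraries and 449, 429 and 412 CPM in the CD11c+ libraries (2.08 ± 0.22, adjusted p 1.71e-06), and *Cd2* was higher (1.54 ± 0.34), while the defining *Cd3d*, *Trac* and *Cd8a* were too low to test.

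Endothelial genes were higher in CD11c+ cells for 2 of 9 tested, with sums of 22.6 to 23.7 CPM in CD11c- and 36.2 to 229 CPM in CD11c+ libraries. *Vwf* was at 1.24, 4.30 and 3.13 CPM in the CD11c- libraries and 59.97, 3.97 and 7.29 CPM in the CD11c+ libraries and overlapped, and it did not pass without CD11c+ replicate 1, the library apart on the second principal component (adjusted p 0.301). *Flt1* was at 1.86, 4.30 and 4.03 CPM in the CD11c- libraries and 43.7, 11.9 and 17.4 CPM in the CD11c+ libraries (2.81 ± 0.61, adjusted p 0.00237). Neutrophil genes summed to 56.0 to 422 CPM in CD11c- and 18.8 to 580 CPM in CD11c+ libraries, overlapping, with *Csf3r* lower (-1.50 ± 0.20) and sharing 23.1% of its words, and *Cxcr2* lower (adjusted p 0.0476) but not in the fits without CD11c- replicate 1 (adjusted p 0.213), CD11c- replicate 2 (0.0759), CD11c+ replicate 1 (0.125) or CD11c+ replicate 2 (0.165). Mast cell genes overlapped too, at 36.6 to 108 and 21.04 to 210.5 CPM, with *Kit* higher (1.95 ± 0.59, adjusted p 0.0232) but not without CD11c- replicate 1 (adjusted p 0.0800) or CD11c+ replicate 3 (0.149). Of the skeletal muscle list, *Ttn*, titin, was lower (-1.63 ± 0.45, adjusted p 0.0126), though not without CD11c+ replicate 2 (adjusted p 0.0769) or CD11c+ replicate 3 (0.0756). No gene of the chondrocyte, mural, adipocyte, osteoblast or erythroid lists passed the test. The part of such cells or their RNA in the subset differences was not tested.

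**Figure D4:**
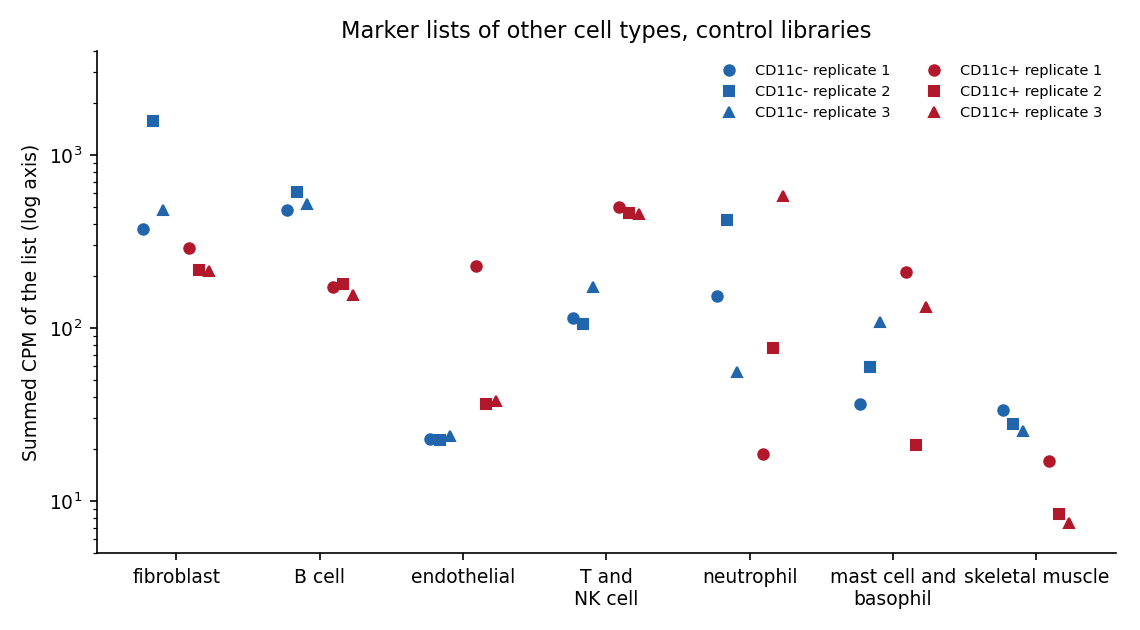
Summed CPM, on a log axis, of marker lists of other cell types in each control library, with CD11c- libraries in blue, CD11c+ libraries in red and a symbol per replicate. Fibroblast and B cell sums are higher in all CD11c- libraries, CD11c- replicate 2 is the highest for fibroblast genes (1566 CPM) and CD11c+ replicate 1 for endothelial genes (229 CPM).

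The same subset difference was measured in the 6 libraries of the explants with CGRP, which share no library with the control comparison. Of the 2526 genes called without CGRP, 2395 (94.8%) had the same sign with CGRP, against 66.1% of the genes not called, and 1377 (54.5%) also passed the threshold in the same direction. *Itgax*, the gene of the CD11c gate, differed by 4.44 ± 0.38 with CGRP, which is again a check of the labels. *Ccl22* (4.01 ± 0.33), *Ramp3* (3.14 ± 0.15), *Nr4a3* (3.88 ± 0.16), *Csf1r* (-1.26 ± 0.15) and *Stab1* (-1.97 ± 0.15) kept their direction and their call. Other genes kept their direction but did not pass with CGRP. Among these were *Ramp1* (1.13 ± 0.43, adjusted p 0.0836), *Mertk* (-0.92 ± 0.34, 0.0716), *Cx3cr1* (-0.62 ± 0.40, 0.358) and *Ccr2* (0.35 ± 0.19, 0.230). The difference between treatments was itself past the threshold for 14 of the called genes, for 27 with the replicate block and for 39 with the block by explant number, and the 14 were among those past the threshold in both blocked fits. Leaving out 1 library gave 5 to 25 such genes, with 5 without CD11c+ control replicate 3 or CD11c- CGRP replicate 2, and 6 without CD11c+ control replicate 2. *Serpinb9*, an inhibitor of granzyme B, was higher in CD11c+ cells in both, by 4.10 ± 0.27 without and 2.15 ± 0.22 with CGRP, and the difference of these was -1.95 ± 0.34 (adjusted p 0.0177). This change did not pass without CD11c- control replicate 1 (adjusted p 0.0563), CD11c+ control replicate 2 (0.0623), CD11c+ control replicate 3 (0.0750) or CD11c- CGRP replicate 2 (0.0586). The remaining 13, most of which encode matrix or other secreted proteins, were lower in CD11c+ cells without CGRP, among them *Col6a3* and *Thbs4*. Among markers of other cell types, the fibroblast list summed to 213 to 288 CPM in CD11c+ control and 472 to 812 CPM in CD11c+ CGRP libraries. In CD11c- libraries it summed to 375 to 1566 CPM without and 576 to 2222 CPM with CGRP. There *Col6a3* had a mean of 55.1 CPM without and 1.39 CPM with CGRP. For *Col1a1*, a member of the fibroblast list, the CD11c- means were 265.6 ± 351.4 CPM without and 32.5 ± 18.8 CPM with CGRP (SD, n = 3). *Dcn* had means of 34.1 and 8.23 CPM in the same CD11c- libraries. The mural list stood at 316 and 167 CPM in CD11c+ CGRP replicates 1 and 3, and the chondrocyte list at 265 CPM in CD11c+ CGRP replicate 2, above all 6 control libraries. *Col6a3* was at 63.1 ± 55.8 CPM and *Dcn* at 56.1 ± 49.0 CPM in the CD11c+ CGRP libraries (SD, n = 3), and the part of these cell types in the change was not tested. *Thbs4*, thrombospondin 4, was at least 10.9-fold lower in CD11c+ cells without CGRP and higher in them with CGRP (5.50 ± 0.63, adjusted p of the change 2.74e-05). *Sparc*, a matrix protein that also stands in the resident macrophage list, differed by -2.56 ± 0.38 without and 0.48 ± 0.34 with CGRP (adjusted p of the change 0.0143, but 0.0544 when CD11c- CGRP replicate 2 was left out and 0.0923 when CD11c+ control replicate 3 was). Of all genes called without CGRP, 13 were called in the opposite direction with CGRP.

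**Figure D5:**
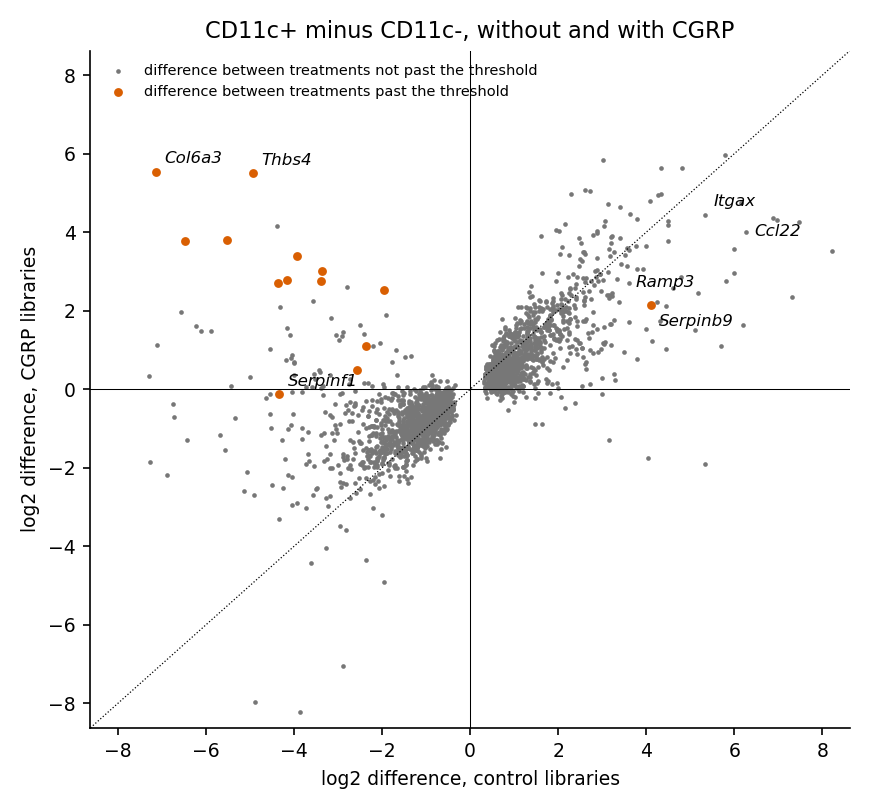
The log2 difference (CD11c+ minus CD11c-) of the 2526 genes called without CGRP, in control libraries (horizontal) and in CGRP libraries (vertical), with a dotted line of equality. Most points lie near the line, and the 14 genes whose difference changed between treatments are in orange, 13 of them left of 0 and *Serpinb9* right of it.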

How the data were processed

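Bulk RNA-seq of sorted synovial cells was analysed from the table of raw counts per gene symbol that the authors deposited, with 26699 symbols. Per the labels' processing notes and the study's methods, reads were trimmed with Trim Galore, checked with FastQC, aligned to mm10 with HISAT2 and counted with featureCounts, and the versions, the annotation and the strand setting are not given in the sources used here. The table also held 6 columns that match no sample analysed here, which were not used. Samples were grouped by their titles.

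Counts of all 12 libraries were fitted with a mean per group in edgeR 4.0.16 (R 4.3.3), after filterByExpr by group (minimum count 10, minimum total 15) and TMM scaling. The quasi-likelihood test was two-sided, with Benjamini-Hochberg adjustment over the 11927 genes tested and a threshold of 0.05. A log2 difference is CD11c+ minus CD11c- and is given ± its standard error, taken as the difference over the root of the F statistic. Where every library of a group held 3 counts or fewer, a fold is a lower bound against 3 counts per library, and floors cover counting error only. The statistics were tested on simulated data, in which somewhat more of the calls than the nominal share fell on unchanged genes and many of the smaller changes were not recovered, so a gene that did not pass is not shown to be equal. Same-numbered CGRP libraries deviated together, so blocked counts stand beside the change with CGRP, a comparison added with the results known. Counts per library differed between replicates by more than sampling noise, so none was taken for a duplicate.

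Gene positions, antisense exons and the share of 31-base words that a gene's transcripts have in common with those of other genes came from GENCODE vM21, and promoters from RefSeq. Of 5 motifs searched, first in windows of 300 bases and then in the 250 bases before the start, 1 was chosen for display after the shares were known, and so were the 4 promoters. The members and lists were chosen with earlier results of these data known. Named were identity genes, the 12 largest differences each way (mean of at least 5 CPM in the higher subset, no overlap, no predicted genes), in each list up to 4 called members each way with the smallest adjusted p, and called markers of other cell types. A few genes that this rule names are not reported here. *Ifit1*, *Oas3*, *Mgl2*, *Pdpn*, *Spi1*, *Sparc* and *Serpinb9*, the genes behind the change with CGRP and the genes in the figures were picked after their values were seen. Alternatives used DESeq2 1.42.0, limma 3.58.1 and sva 3.50.0.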

Additional observations from a re-analysis of the deposited data

Results flagged for a closer look

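For 14 genes called without CGRP, the subset difference itself differed between explants with and without CGRP by the interaction term of the edgeR quasi-likelihood fit. The values here are the log2 difference (CD11c+ minus CD11c-) with CGRP minus that without it. For collagen chains this was 6.38 for *Col5a2*, 7.34 for *Col6a1*, 7.05 for *Col6a2* and 12.68 for *Col6a3*. For secreted proteoglycans it was 6.96 for *Dcn*, 10.26 for *Fmod* and 9.34 for *Prelp*. For other proteins of matrix and stroma it was 6.15 for *Fstl1*, 4.49 for *Htra1*, 3.46 for *Lamb2*, 4.21 for *Serpinf1*, 3.05 for *Sparc* and 10.44 for *Thbs4*. In the CD11c+ control libraries *Col6a3*, *Fmod*, *Prelp* and *Thbs4* stood at or under 3 counts, so these fitted values depend on the prior count and are no bounds. The CD11c- means of these genes were lower with than without CGRP, at 1.39, 1.096, 0.899 and 0.729 CPM with it. In those CGRP libraries 3 counts corresponded to 0.566 to 0.794 CPM. Their changes therefore combine a lower CD11c- mean with a higher CD11c+ mean. *Fmod* overlapped between the control subsets, at 26.7, 4.01 and 0 CPM in the CD11c- libraries. Of the 14, 4 (*Col5a2*, *Col6a1*, *Col6a3* and *Thbs4*) passed in each of the 12 fits that left out 1 library. The fibroblast list was higher in the CD11c+ CGRP libraries (472 to 812 CPM) than in the CD11c+ control libraries (213 to 288 CPM). In the CD11c- libraries it was at 576 to 2222 CPM with and 375 to 1566 CPM without CGRP. The part of this list in these changes was not tested. *Serpinb9*, an inhibitor of granzyme B, had a value of -1.95 and was higher in CD11c+ cells in both sets of libraries.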

How the results depend on the processing

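Counts of genes past the threshold stayed within 1.5 times of the 2526 reported under other scalings, filters and tools, from 2210 with at least 10 counts in each control library to 2782 with DESeq2, and at 3232 with an adjusted p under 0.1. A test against a minimum log2 change of 1 left 347 genes, 180 higher and 167 lower, by its stricter null. Leaving out 1 library gave 2032 to 2532 genes, with 1021 to 1343 higher and 919 to 1301 lower. Same-numbered libraries of the 2 subsets deviated together with r = 0.115, 0.0551 and 0.00397 in control explants, so the numbers were not taken as pairs, and not every library correlated best with its own number. In CGRP explants r was 0.323, 0.206 and 0.214, and each library correlated best with its own number. The replicate block gave 2596 genes and the block by explant number 2662. Of the genes called without CGRP, 1439 and 1494 were also called with it in the same direction in these blocked fits, and 1106 to 1402 when 1 library was left out. Of 205 genes named and tested, 201 were called and 91 were past the threshold in every alternative that gave a value for them, of 26 run. These 26 include the test against a minimum log2 change of 1. For many genes that test was the only alternative not passed, among them *Csf1r* (adjusted p 0.202), *Cd74* (0.181) and *Mrc1* (0.120). *Xcr1*, not called, ranged from -0.076 (the reversed sign, without CD11c- replicate 1) to 0.33 (without CD11c- replicate 3). With limma-voom *Col6a3* (adjusted p 0.206), *Prelp* (0.219), *Col6a2* (0.0862), *Dcn* (0.121) and *Mpp2* (0.0513) did not pass, and the cause was not tested. Chosen after seeing the data, thinning to the lowest total gave 2395 genes, and leaving out CD11c- replicate 2 and CD11c+ replicate 1 together gave 1788, where *Gbp2* (adjusted p 0.0891) and *Ccr2* (0.0783) were among the genes that did not pass. At these depths a gene near 3 counts in 1 subset has only a lower bound for its fold.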
